A study of Mus musculus with 6 samples.

Results

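The genes described here are the clustered replication-dependent histone genes of the mouse. They were chosen by symbol, as every gene of the deposited table named H2ac, H2bc, H3c or H4c with a number, together with the linker histone genes H1f1 to H1f5. The rule found 64 of the 55357 genes listed, with 5 H1, 18 H2A, 17 H2B, 12 H3 and 12 H4 genes. The annotation placed 54 of them on chromosome 13 and 10 on chromosome 3. The rule used symbols and no measured value, although the family was taken up with earlier results of these data known.

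Primary astrocytes had been cultured from the cortex of C57BL/6 mouse embryos. In 3 cultures, called KE here, the cells were transfected with BRAF KE, the K499E form of the kinase BRAF found in patients with a RASopathy. The sample titles name no plasmid. For its immunostained cultures, the paper describes a plasmid in which the CMV promoter drives FLAG-tagged BRAF KE, given with a GFP plasmid. The other 3 cultures, called NT, were nontransfected, and no culture that received an empty plasmid or BRAF WT was analysed here, so the effect of BRAF KE and that of transfection cannot be told apart. RNA was taken 48 hours after transfection, and libraries were made with a stranded kit that selects mRNA by its poly(A) tail. The labels number the cultures of each group 1 to 3 without saying that they came from separate preparations, so the p-values measure only the spread between these samples, which may be technical.

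Histones are the proteins around which DNA is wound. H2A, H2B, H3 and H4 form the core of the nucleosome, and H1 binds the linker DNA between cores. The clustered genes supply most of the histone needed when DNA is copied, and their mRNAs are known for rising in S phase and for being degraded when replication stops. These mRNAs usually have no intron and no poly(A) tail. Each ends just after a short stem-loop, which the stem-loop binding protein SLBP holds during processing, translation and decay, and a share of them can also be made with a poly(A) tail when the transcript runs past the stem-loop.

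The stem-loop is printed for 7 members on which the results below turn, because it sets this family apart from other mRNAs. The 16 bases of the stem and loop are in capitals, with 5 bases on each side in lower case, read 5′ to 3′ on the strand of the gene from GRCm39.
H1f2: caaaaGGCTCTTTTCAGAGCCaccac
H1f3: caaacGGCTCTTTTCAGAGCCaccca
H2bc4: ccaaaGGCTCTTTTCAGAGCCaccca
H2ac19: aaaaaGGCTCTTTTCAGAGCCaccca
H3c15: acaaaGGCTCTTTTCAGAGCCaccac
H4c9: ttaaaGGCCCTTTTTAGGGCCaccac
H4c8: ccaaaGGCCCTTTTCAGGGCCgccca

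These stretches lie at chr13:23923490-23923515 on the plus strand for H1f2, chr13:23739956-23739981 on the plus strand for H1f3 and chr13:23868625-23868650 on the plus strand for H2bc4. They lie at chr3:96147095-96147120 on the minus strand for H2ac19 and chr3:96145796-96145821 on the minus strand for H3c15. Those of the H4 genes lie at chr13:22225131-22225156 on the minus strand for H4c9 and chr13:23715623-23715648 on the plus strand for H4c8. All 7 begin after the stop codon of the main transcript, counted along the genome. The H1, H2A, H2B and H3 genes shown have the same 16 bases, and the H4 genes differ from them in the stem, H4c9 also in the loop. A match to the 16-base pattern began 22 to 59 bases after the stop codon in 58 of the 64 members (90.6%), against 1 of 1737 other protein-coding genes on the same chromosomes (0.0576%). In 3 more members, H2bc22, H2bc23 and H2bc24, the match lay within the gene but before the stop codon of the main transcript, which has 2 exons. Whether a match lay in an exon or an intron was not checked. The form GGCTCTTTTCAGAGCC was found in 39 members, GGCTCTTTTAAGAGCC in 8 and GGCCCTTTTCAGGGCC in 7. No match was found for H2bc21 and H2ac22, and H2ac14, annotated as a pseudogene without a stop codon, was not searched.

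The deposited values are gene counts divided by a size factor for each sample, called normalized counts here. Braf served as the check of the labels, with 35025, 34933 and 40978 normalized counts in KE and 925, 811 and 946 in NT. The approximate depth was 24500000 to 34100000 reads in KE and 29500000 to 32100000 in NT. All 9 astrocyte markers were detected, of which 6 were upregulated, 1 (Gja1) downregulated and 2 (Aqp4 and S100b) not called, and their summed level was 149077 to 151319 in KE and 107987 to 113021 in NT. All 14 microglia and macrophage markers were downregulated, and their summed level was 5172 to 7224 in KE and 44540 to 52512 in NT, with none of them at 0 in KE. All 6 markers of the oligodendrocyte lineage were downregulated too. In these bulk samples, fewer cells of a type and less RNA per cell cannot be told apart, and the part of this change of cell types in the histone values was not tested.

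Of the 64 histone genes, 28 had a mean of at least 10 normalized counts over the 6 cultures and were compared on log2(normalized count + 1) with limma, adjusted by Benjamini-Hochberg over all 15280 genes tested. The 1 added draws the log2FC of scarce members towards 0, while a culture at 0 can raise it above the log2 of the ratio of means, as in H2ac18 and H2ac24 below. At an adjusted p-value under 0.05, 20 of the 28 were upregulated in KE, none was downregulated and 8 were not called, where 25.3% of all genes tested were upregulated and 26.0% downregulated (51.3% in either direction). At an unadjusted p under 0.05 in limma, 21 were higher in KE and 0 lower, and in no alternative that kept these 28 members was any of the 28 downregulated. Outside the 28, the scarce H2bc12 and H2ac15 were downregulated with no filter beyond a mean above 0. The median log2FC was 1.60 over the 28 members and 0.0018 over all genes tested. Since 6 of the 28 passed the mean of 10 only through KE, the members with an NT mean of at least 10 were also counted, and 16 of these 22 were upregulated, with a median log2FC of 1.39 against −0.0081 over all genes tested with such an NT mean. For 22 tested members the groups were free of overlap, and 21 of these were higher in KE, where 30.1% of all genes tested were higher in KE without overlap and 29.9% lower.

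**Figure D1:**
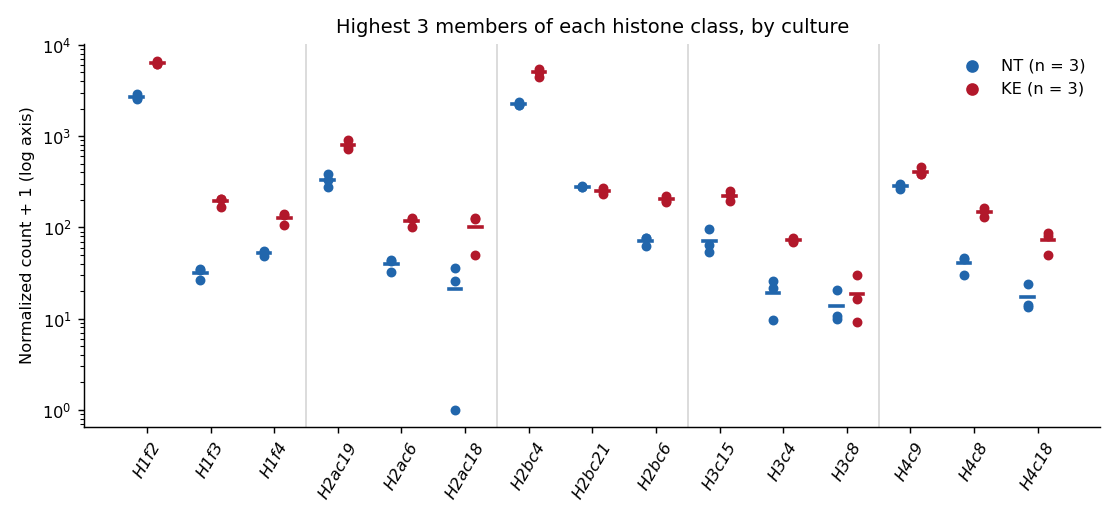
Normalized count plus 1 on a log axis in each culture (points, NT in blue and KE in red, n = 3 each) with the group mean (bar), for the 3 members with the highest mean in each histone class. KE lies above NT in 13 of the 15 genes with no overlap, while H2bc21 lies below NT and H3c8 overlaps.

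The linker histones were upregulated in 4 of 5 genes. H1f2 (chr13:23922791-23924350, plus strand), the most abundant member, had 6125, 6611 and 6190 normalized counts in KE and 2647, 2922 and 2568 in NT. Even the lowest KE culture was above the highest NT culture by far more than the spread within either group. The KE mean of 6309 ± 264 was 2.33-fold the NT mean of 2712 ± 186 (SD, n = 3 each), with a log2FC of 1.22 (SE 0.06, limma adjusted p = 8.53e-08). H1f3 (chr13:23737436-23744860, plus strand) had 206, 165 and 203 normalized counts in KE and 33.6, 33.2 and 25.7 in NT. Its level was low in all NT cultures, and its means of 191 ± 22.9 and 30.8 ± 4.44 (SD, n = 3 each) differed 6.21-fold, the largest ratio among the H1 genes, with a log2FC of 2.60 (SE 0.19, limma adjusted p = 8.04e-07). H1f4 had 106, 139 and 135 normalized counts in KE and 47.5, 53.8 and 52.5 in NT, again without overlap, and its log2FC was 1.28 (SE 0.18).

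The last pair of linker genes was scarce. H1f5 had 21.6, 26.3 and 28.9 normalized counts in KE and 11.9, 7.21 and 13.4 in NT, with a log2FC of 1.20 (SE 0.34, limma adjusted p = 0.0125). H1f1 had 20.7, 26.3 and 25.3 in KE and 9.93, 15.4 and 17.3 in NT. The groups did not overlap for H1f1 either, but its log2FC of 0.75 (SE 0.32) missed the threshold in limma with an adjusted p of 0.0724.

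Of the H2A genes, 6 of 18 were tested and 4 were upregulated, or 3 of the 4 with an NT mean of at least 10. H2ac19 (chr3:96147065-96147592, minus strand) led the class with 782, 906 and 717 normalized counts in KE and 279, 387 and 327 in NT. The lowest KE culture was nearly double the highest NT culture, and the means of 802 ± 96.0 and 331 ± 54.1 (SD, n = 3 each) differed 2.42-fold (log2FC 1.28, SE 0.13). H2ac6 had 99.4, 121 and 126 normalized counts in KE and 41.6, 42.4 and 31.5 in NT, a 3.00-fold difference between the means (log2FC 1.57, SE 0.20). H2ac6 (chr13:23865450-23867931) lies on the minus strand and overlaps H2bc4 on the plus strand, and the kit keeps the strand, but how strand was used in counting is not given in the sources used here.

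H2ac18 had 127, 123 and 48.9 normalized counts in KE and 34.9, 24.8 and 0 in NT. Its values varied widely within both groups, and all 31-base stretches of H2ac19's transcript also occur in H2ac18. Gm20634, a gene outside the set that overlaps H2ac18 on the same strand, also holds all of H2ac19's stretches and 89.7% of those of H2ac18. How reads were divided with Gm20634 was not tested. H2ac18 was upregulated by a log2FC of 3.25 (SE 1.06, limma adjusted p = 0.0248), and the call was lost without KE replicate 1 or without KE replicate 2, with limma adjusted p-values of 0.0801 and 0.0791. Its log2FC ranged from 1.60 (without NT replicate 3, which held its 0) to 4.19 (without NT replicate 1) when 1 culture was left out. With H2ac18 and H2ac19 summed, a choice made after seeing the data, the values were 909, 1029 and 766 in KE and 314, 412 and 327 in NT. The sum did not overlap between the groups and was upregulated by a log2FC of 1.36 (SE 0.13, limma adjusted p = 7.2e-06). H2ac7 was upregulated with a log2FC of 1.92 (SE 0.47), with 21.5, 27.5 and 18.99 normalized counts in KE and 6.96, 2.06 and 8.67 in NT. Both H2ac7 and H2ac24 passed the mean of 10 only through KE. H2ac8 and H2ac24 overlapped between the groups and were not called. Without NT replicate 3 the log2FC of H2ac8 turned from 0.30 to −0.08, and H2ac24 was upregulated without NT replicate 2.

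Of the H2B genes, 8 of 17 were tested and 5 were upregulated, or 4 of the 7 with an NT mean of at least 10. H2bc4 (chr13:23867631-23878163, plus strand), the second most abundant member, had 5114, 5477 and 4415 normalized counts in KE and 2180, 2345 and 2210 in NT. The KE cultures varied more than the NT cultures, yet the lowest of them was well above the highest NT culture. With 5002 ± 540 in KE and 2245 ± 87.7 in NT (SD, n = 3 each), the means differed 2.23-fold (log2FC 1.15, SE 0.08, limma adjusted p = 5.45e-07). H2bc6 had 196, 191 and 219 normalized counts in KE and 61.4, 74.8 and 75.7 in NT, a 2.86-fold difference (log2FC 1.51, SE 0.15). In the annotation used here, H2bc6 overlaps H1f4 on the same strand, so reads of the shared part cannot be assigned to 1 of them by position. H2bc8 had 74.5, 88.9 and 99.5 in KE and 20.9, 24.7 and 27.9 in NT, and its log2FC was 1.80 (SE 0.22).

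H2bc11 was scarce in NT, with 2.98, 5.16 and 8.66 normalized counts, and reached 33.0, 37.6 and 26.2 in KE. The groups were well apart, with a log2FC of 2.41 (SE 0.40, limma adjusted p = 0.00048), but H2bc11 passed the mean of 10 only through KE. H2bc9 had means of 32.3 in KE and 24.9 in NT that overlapped and was not called, with a log2FC of 0.39 (SE 0.28).

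H2bc23 and H2bc24 are a pair whose annotated transcripts share all their 31-base stretches. H2bc24 had 148, 28.5 and 156 normalized counts in KE and 24.2, 0 and 20.9 in NT. H2bc23 had 16.2, 148 and 12.02 in KE and 12.2, 26.4 and 0 in NT. In each KE culture one gene of the pair was high where the other was low, so their separate values are uncertain. H2bc24 was upregulated by a log2FC of 3.43 (SE 1.07, limma adjusted p = 0.0199), and the call was lost without KE replicate 1 or without KE replicate 3, with limma adjusted p-values of 0.0753 and 0.0841. Its log2FC ranged from 1.91 (without NT replicate 2, which held its 0) to 4.24 (without NT replicate 1) when 1 culture was left out. H2bc23 was not called, but it was upregulated with the replicate block and without NT replicate 2. The sum of the pair, again a choice made after seeing the data, was 164, 177 and 168 in KE and 36.4, 26.4 and 20.9 in NT. The sum varied far less within each group than its parts, with means of 170 ± 6.60 and 27.9 ± 7.84 (SD, n = 3 each), a 6.08-fold difference and a log2FC of 2.60 (SE 0.21, limma adjusted p = 2.4e-06).

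H2bc21 was the only one of the 8 tested H2B genes with a log2FC below 0. It had 247, 234 and 273 normalized counts in KE and 281, 273 and 274 in NT. All KE values were below the NT values, the highest KE culture at 272.5 and the lowest NT culture at 273.3, but the log2FC of −0.14 (SE 0.11) was not called, with a limma adjusted p of 0.298. H2bc21 (chr3:96128435-96131054, plus strand) is annotated as a single exon of 2620 bases, and no stem-loop was found in it. The log2 ratio of H2bc4 to H2bc21 was 4.37, 4.55 and 4.02 in KE and 2.96, 3.10 and 3.01 in NT. This ratio, which does not depend on the scaling between cultures, was higher in KE by 1.29 without overlap, and the two-sided exact permutation test gave p = 0.1, the smallest that 3 against 3 allows.

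**Figure D2:**
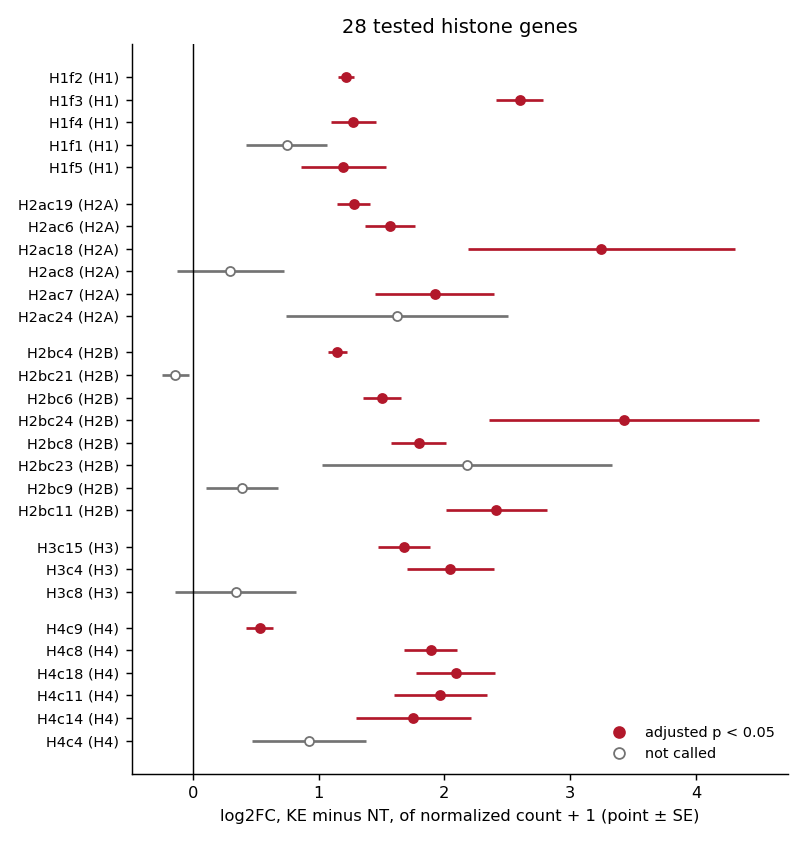
log2FC of KE minus NT (point) with its standard error (line) for the 28 tested members by histone class, with those called at an adjusted p under 0.05 in red and the others open. The 20 called members range from 0.53 (H4c9) to 3.43 (H2bc24), and H2bc21 is the only member below 0.

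Of the H3 genes, 3 of 12 were tested and 2 were upregulated. H3c15 (chr3:96145424-96146443, minus strand) had 224, 248 and 192 normalized counts in KE and 63.4, 93.9 and 52.7 in NT. The groups were far apart, with means of 221 ± 28.1 and 70.0 ± 21.4 (SD, n = 3 each) and a log2FC of 1.68 (SE 0.21, limma adjusted p = 5.6e-05). H3c4 had 70.4, 68.8 and 75.1 in KE and 24.8, 20.7 and 8.61 in NT, with a log2FC of 2.05 (SE 0.35). H3c8 had 15.2, 28.8 and 8.14 in KE and 8.95, 19.6 and 9.63 in NT. The H3c8 values overlapped and were not called, and its log2FC of 0.34 turned to −0.09 without KE replicate 2.

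Of the H4 genes, 6 of 12 were tested and 5 were upregulated, but H4c11, H4c14 and H4c4 passed the mean of 10 only through KE, and all 3 with an NT mean of at least 10 were upregulated. H4c9 (chr13:22224806-22225532, minus strand) had 384, 458 and 384 normalized counts in KE and 287, 295 and 263 in NT. The groups did not overlap, but the means of 409 ± 42.7 and 282 ± 16.7 (SD, n = 3 each) differed only 1.45-fold, the smallest ratio among the called members (log2FC 0.53, SE 0.11, limma adjusted p = 0.0018). H4c8 (chr13:23715220-23715689, plus strand) had 128, 162 and 152 in KE and 28.8, 45.4 and 44.3 in NT. Its means of 147 ± 17.5 and 39.5 ± 9.26 (SD, n = 3 each) differed 3.72-fold (log2FC 1.89, SE 0.21). H4c18 had 48.9, 79.0 and 85.1 in KE and 12.9, 22.8 and 12.5 in NT, a 4.42-fold difference (log2FC 2.09, SE 0.31). H4c11 and H4c14 were upregulated with log2FC of 1.97 and 1.75 from NT means of 5.99 and 4.58, and H4c4 was not called.

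Summed over all 64 members, the normalized counts were 14462, 15624 and 13804 in KE and 6264, 6904 and 6186 in NT. The means of 14630 ± 922 and 6451 ± 394 (SD, n = 3 each) stood in a ratio of 2.27. H1f2 held 42.8% of all member counts and H2bc4 34.4%. Without this pair the sum was 3319 ± 188 in KE and 1494 ± 125 in NT (SD, n = 3 each), a ratio of 2.22, so the ratio of the sum hardly moved. The ratio of the summed counts was 2.37 for H1, 2.50 for H2A, 2.15 for H2B, 2.76 for H3 and 1.90 for H4. Per kilobase of annotated transcript, the mean level was 2891 for H1f2, 2123 for H2bc4, 1073 for H2ac19, 475 for H4c9, 198 for H4c8, 143 for H3c15 and 101 for H2bc21. On this scale too, H1f2 and H2bc4 were the highest of the genes named.

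The other 36 members had a mean below 10 normalized counts and were not tested. H2ac1, H2ac13, H2bc1, H3c14 and H4c17 were at 0 in all 6 cultures. The mean was higher in KE for 16 and higher in NT for 15, with the remaining 5 at 0 throughout. Of the 31 above 0, 5 did not overlap with KE higher and 2 with NT higher, where 5.73% and 6.78% of all 10219 genes with a mean above 0 and below 10 did so. Their summed counts were 97.8 to 133 in KE and 80.7 to 90.9 in NT, which did not overlap. Just below the minimum lay H3c2 with a mean of 8.69 and H4c3 with 8.49, and just above it H4c4 with 10.1 and H4c14 with 10.7.

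Many members have near-identical transcripts, between which reads are divided by estimation. In 39 members at least 50% of the 31-base stretches of the main transcript also occur in another member, and 12 of these were tested and 9 upregulated (7 of the 9 with an NT mean of at least 10), with a median log2FC of 1.91. Of the 25 members with a lower share, 16 were tested and 11 upregulated (9 of the 13 with an NT mean of at least 10), with a median log2FC of 1.21. H1f2 shared 11.4% of its stretches with other members, H2bc4 24.2%, H1f3 3.0% and H2bc21 1.27%. These shares are of transcripts in Gencode vM39, and where the reads fell within them was not tested. Genes outside the set can share stretches as well, as Gm20634 does with H3c15 (64.2%), and are not part of these shares. Both groups of members thus held upregulated genes and no downregulated gene.

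On chromosome 13, 23 of 54 members were tested and 16 upregulated, or 13 of the 18 with an NT mean of at least 10. On chromosome 3, 5 of 10 were tested and 4 upregulated, or 3 of the 4 with an NT mean of at least 10, with H2bc21 the exception.

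Because the kit selects a poly(A) tail, members were also described by the distance on the genome, introns included, from the stem-loop to the farthest end of an annotated transcript. This is not the length of RNA past the stem-loop, since transcripts such as those of H2bc4, H2bc23 and H2bc24 are spliced. In 24 members this end lay more than 100 bases past the stem-loop. These members had a median level of 32.2 normalized counts, 17 were tested and 13 upregulated, or 11 of the 14 with an NT mean of at least 10. The distance was 9518 bases for H2bc4, 4884 for H1f3 and 840 for H1f2. In 37 members the end lay at most 100 bases past the stem-loop or before it, as in models that hold only the coding part. These had a median of 3.54 normalized counts, 10 were tested and 7 upregulated, or 5 of the 7 with an NT mean of at least 10. H2ac19, with 35 bases past the stem-loop, and H4c8, with 46, were the most abundant of the latter. Upregulated genes were found among members of both kinds.

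**Figure D3:**
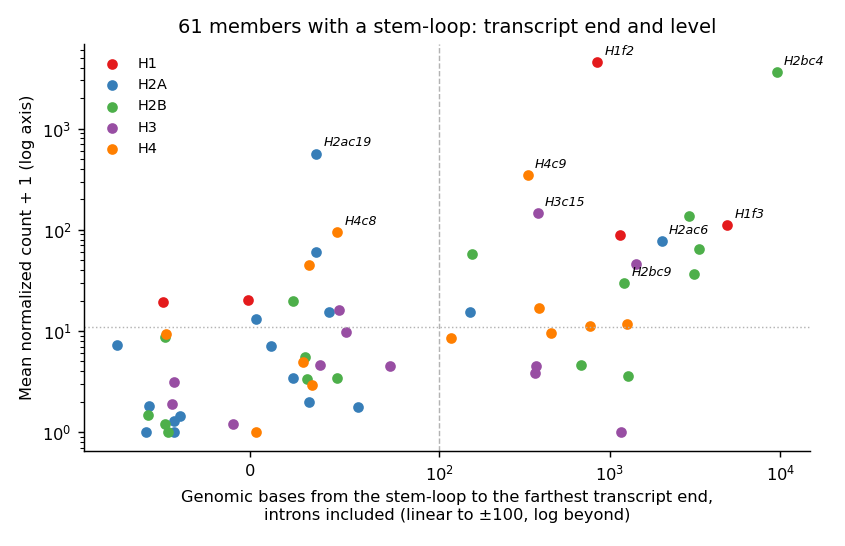
Mean normalized count plus 1 over the 6 cultures (log axis) against the genomic distance in bases, introns included, from the stem-loop to the farthest annotated transcript end (linear up to 100, log beyond) for the 61 members with a stem-loop, coloured by histone class; the dashed line marks 100 bases and the dotted line the mean of 10 needed for the test. H1f2 and H2bc4 are at the top right, and most members left of the dashed line lie under the dotted line.

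RNAs known to lack a poly(A) tail were looked at as a measure of how much such RNA each library held. Of 16 rows for RNAs of this kind, 4 were tested, none was upregulated and 1 was downregulated. The latter was Rn7s2, an RNA of the signal recognition particle, with 55.6, 0 and 0 normalized counts in KE and 762, 430 and 102 in NT. Rn7s1, its sister gene, had 1319, 602 and 484 in KE and 164, 877 and 464 in NT and was not called (log2FC 0.84, SE 0.51). The sum of both was 1375, 602 and 484 in KE and 926, 1308 and 566 in NT, so the groups overlapped for the pair. Over all 16 rows the summed level was 539 to 1496 in KE and 624 to 1410 in NT, so the groups overlapped. At an unadjusted p under 0.05 in limma, none of the 4 was higher in KE and 2 were lower. Whether the share of tailed histone mRNA differed between KE and NT was not tested.

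The promoters of H1f3 and H2bc8 are printed because they belong to upregulated members and hold motifs that were searched for in each histone class. Both run from 250 bases before to 50 after the start that RefSeq gives the gene, on the plus strand of GRCm38.p6. Matched to GRCm39, the RefSeq start of H1f3 lies 1770 bases downstream of the Gencode vM39 start given above, inside that gene model, and that of H2bc8 lies 4 bases downstream. Capitals mark TATAAA and the CCAAT box, the motif AAACACA of H1 promoters and, lastly, the octamer ATTTGCAT, known as the site of the factor encoded by Pou2f1 in H2B promoters.
H1f3: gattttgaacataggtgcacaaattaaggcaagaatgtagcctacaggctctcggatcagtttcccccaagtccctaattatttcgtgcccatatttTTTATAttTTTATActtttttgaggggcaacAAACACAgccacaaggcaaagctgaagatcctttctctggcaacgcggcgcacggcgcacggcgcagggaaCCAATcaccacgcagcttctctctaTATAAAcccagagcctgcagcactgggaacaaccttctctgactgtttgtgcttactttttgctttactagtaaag
H2bc8: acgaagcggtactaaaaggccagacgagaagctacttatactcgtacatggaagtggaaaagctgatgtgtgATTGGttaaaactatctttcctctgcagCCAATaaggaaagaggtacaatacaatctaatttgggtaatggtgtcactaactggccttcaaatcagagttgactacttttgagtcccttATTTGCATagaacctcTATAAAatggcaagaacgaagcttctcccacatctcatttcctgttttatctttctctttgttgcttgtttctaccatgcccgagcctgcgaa

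The H1f3 window is chr13:23554782-23555081 and the H2bc8 window chr13:23571150-23571449. Counted from the RefSeq start, in H1f3 the TATAAA nearest that start begins at base −26 and AAACACA at base −122. In H2bc8 the octamer begins at base −59 and TATAAA at base −43. Motifs were searched on both strands by exact match, and 57 members had a promoter in the table, 1 of them with an extra entry. ATTTGCAT was found in 7 of 15 H2B promoters and 6 of 17 H2A promoters, in no H1, H3 or H4 promoter, and in 1.74% of all 32851 promoters. The windows of H2ac8 and H2bc8, of H2ac12 and H2bc12, and of H2ac1 and H2bc1 overlap on opposite strands. Each of these pairs shares the same octamer, which is counted under both genes. Other H2A and H2B windows overlap as well, so some TATAAA and CCAAT matches are also counted under both genes. TATAAA was found in 4 of 5 H1, 11 of 17 H2A, 7 of 15 H2B, 4 of 10 H3 and 8 of 11 H4 promoters, against 13.6% of all. CCAAT was found in every H1, H2A, H2B and H3 promoter but in 3 of 11 H4 promoters, against 37.4% of all. AAACACA was found in 4 of 5 H1, 2 of 17 H2A and 2 of 15 H2B promoters, against 7.18% of all. These matches describe the letters of the windows only.

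The clustered genes were set beside 4 lists of genes of related function. Replication-independent histone genes, which lie outside the clusters and encode mostly variants whose mRNAs carry a poly(A) tail, were measured in 11 genes, of which 8 were downregulated, 1 upregulated and 2 not called, with a median log2FC of −0.56. H2az1, encoding the variant H2A.Z, had 9218, 8295 and 7407 normalized counts in KE and 16828, 15714 and 16775 in NT. Cenpa, the centromeric H3, had 1107, 1178 and 990 in KE and 2177, 2382 and 2264 in NT. Both were lower in every KE culture, with log2FC of −0.99 (SE 0.08) for H2az1 and −1.06 (SE 0.08) for Cenpa. The macroH2A genes Macroh2a1 and Macroh2a2 were downregulated with log2FC of −0.61 and −0.67 (SE 0.07 and 0.08).

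H3f3b, a gene for H3.3, was the member of this list that was upregulated, with 25070, 24392 and 25128 normalized counts in KE and 19172, 17926 and 19949 in NT (log2FC 0.39, SE 0.06). Its partner H3f3a, which encodes the same protein, was downregulated (log2FC −0.47, SE 0.06). H1f0, the linker histone of resting cells, was not called, with a log2FC of −0.05 (SE 0.06). The log2 ratio of H1f2 to H1f0 in the same culture was 0.49, 0.48 and 0.51 in KE and −0.76, −0.63 and −0.92 in NT. H1f2 thus lay above H1f0 in all KE cultures and below it in all NT cultures, a difference of 1.27 (two-sided exact permutation p = 0.1, the smallest possible).

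Genes for the transcription, 3′ end processing and decay of histone mRNA were measured in 26 genes, of which 14 were downregulated, 2 upregulated and 10 not called, with a median log2FC of −0.20. The downregulated count fell to 10 to 13 when 1 culture was left out, and to 10 without the variance trend. Slbp, the stem-loop binding protein, had 2041, 1863 and 1915 normalized counts in KE and 2708, 2523 and 2719 in NT. Npat, the coactivator of histone gene transcription, had 1242, 1199 and 1414 in KE and 1668, 1387 and 1549 in NT. Slbp was lower in all KE cultures, with a log2FC of −0.45 (SE 0.06), and Npat overlapped slightly, with a log2FC of −0.26 (SE 0.09, limma adjusted p = 0.0292). The call of Npat was lost without KE replicate 1 or 2, without NT replicate 1 or 3 and without the variance trend, with limma adjusted p-values of 0.067 to 0.117. Casp8ap2, which encodes FLASH, a part of the cleavage complex, was downregulated (log2FC −0.73, SE 0.07), as was Eri1, an exonuclease that acts on the histone 3′ end (log2FC −0.87, SE 0.07). Lsm11 of the U7 particle was downregulated (log2FC −0.44, SE 0.12), whereas Lsm10 was not called (log2FC 0.13, SE 0.10). Srrt, which encodes ARS2 of the nuclear cap-binding complex, was downregulated (log2FC −0.60, SE 0.07). Tut7, a terminal uridylyltransferase of RNA decay, was upregulated, with 4532, 4370 and 5309 in KE and 2805, 3083 and 2771 in NT (log2FC 0.71, SE 0.08). Wdr33, of the polyadenylation complex, was the other upregulated gene (log2FC 0.30, SE 0.06).

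Histone chaperones, which carry histones to DNA, were measured in 18 genes, of which 14 were downregulated, 2 upregulated and 2 not called, with a median log2FC of −0.46. Nasp, which keeps a store of soluble H3 and H4, had 2499, 2350 and 2308 normalized counts in KE and 5680, 5163 and 5380 in NT. Every KE culture was under 50% of every NT culture, and the log2FC was −1.18 (SE 0.06). Chaf1a and Chaf1b, subunits of the assembly factor CAF-1, were downregulated with log2FC of −0.94 and −0.75 (SE 0.08 and 0.09), and Nap1l1, a chaperone of H2A and H2B, with a log2FC of −0.83 (SE 0.06). Daxx, the H3.3 chaperone, was upregulated, with 2159, 2113 and 2379 in KE and 993, 1118 and 991 in NT (log2FC 1.10, SE 0.07), and so was Supt6 (log2FC 0.22, SE 0.06), whose call was lost without NT replicate 1 (log2FC 0.17, limma adjusted p = 0.0501).

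Genes of S phase and proliferation were measured in 28 genes, of which 26 were downregulated, 1 upregulated and 1 not called, with a median log2FC of −0.90. Mki67, the marker Ki67 of cycling cells, had 5466, 5370 and 5642 normalized counts in KE and 17393, 16842 and 17290 in NT. Pcna, the sliding clamp of DNA polymerase, had 6412, 6103 and 5696 in KE and 10556, 9456 and 10600 in NT. The groups were far apart for both genes, with log2FC of −1.64 (SE 0.05) for Mki67 and −0.75 (SE 0.07) for Pcna. Cyclin genes Ccna2 and Ccne2 were downregulated with log2FC of −1.25 and −1.24 (SE 0.06 and 0.08), and Top2a, a topoisomerase of dividing cells, with a log2FC of −1.11 (SE 0.05). Cdkn1a, the cell cycle inhibitor p21, was the upregulated gene, with 11660, 12056 and 11924 in KE and 7668, 8328 and 7593 in NT (log2FC 0.60, SE 0.06). Cdkn1b, also a cell cycle inhibitor, was the gene not called (log2FC 0.04, SE 0.06).

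Counts of the clustered histone genes and of S phase genes stood in opposite directions in the same cultures. The summed level of the S phase list was 81164 to 83662 normalized counts in KE and 141761 to 148450 in NT, while that of the 64 histone genes was 13804 to 15624 and 6186 to 6904. The sum of the S phase list includes the inhibitors Cdkn1a and Cdkn1b. The log2 ratio of H1f2 to Slbp, a gene of the histone mRNA list, was 1.59, 1.83 and 1.69 in KE and −0.03, 0.21 and −0.08 in NT. It was higher in KE by 1.67 without overlap (two-sided exact permutation p = 0.1). Because H1f2 was already called higher and Slbp lower, this ratio is no separate test of opposite directions.

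**Figure D4:**
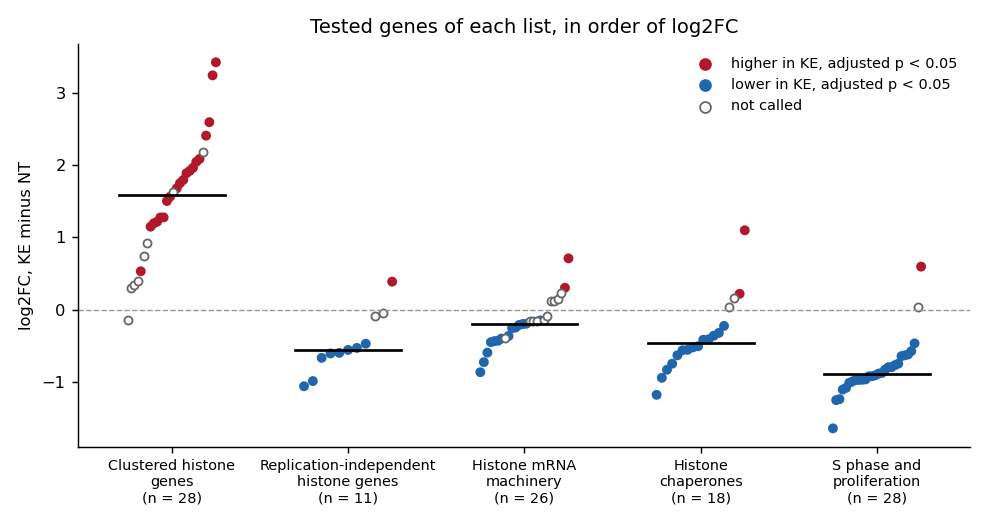
log2FC of KE minus NT for each tested gene of the 64 clustered histone genes and of the 4 related lists, in order within each list (red, higher; blue, lower; open, not called) with the list median as a bar. The median is 1.60 for the clustered histone genes (1.39 over those with an NT mean of at least 10) and −0.56, −0.20, −0.46 and −0.90 for replication-independent histones, histone mRNA machinery, chaperones and S phase genes.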

How the data were processed

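RNA-seq of cultured mouse cortical astrocytes, 3 KE and 3 NT cultures, was analysed with groups and replicate numbers from the sample labels. The authors deposited a normalized signal per gene, Salmon gene counts divided by DESeq2 size factors. Trimming with Trim Galore and alignment with STAR are stated. The methods name GRCm39 and Gencode, while the submitters' processing notes name GRCh38, but all members carry mouse identifiers. The methods mention a batch adjustment without naming batches, so none was modelled. Size factors assume that most genes do not change. Whole reads were not recovered, so no count test was run and precision rests on the spread between cultures; KE replicate 2 was the shallowest.

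KE was compared with NT by limma (version 3.58.1, R 4.3.3), two-sided, on log2(normalized count + 1), keeping genes whose mean reached 10, with group as the only term and a variance trend. The fit was tested on simulated data. Alternatives were other pseudocounts (0.5 and 5), mean filters (none and 50), quantile and 75th percentile scaling, no trend, a replicate block and leaving out each culture. Summing near-identical members was added after the data were seen.

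Coordinates and stem-loops are from Gencode vM39 on GRCm39, in which all 64 members were found by identifier. The stem-loop was searched over 500 bases of genome after the stop codon. Promoters are from RefSeq on GRCm38.p6, matched by symbol.

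Members with values for every culture are the 3 highest in each class and the largest changes among called members; H1f1, H1f5, H2ac7, H2bc8 and H2bc23 were added after their values were seen. In each related list, the called genes with the largest changes and those needed to explain it are named, with H1f0, H3f3a, H3f3b, Lsm10, Lsm11, Chaf1b, Wdr33 and Supt6 added in the same way. Members and lists were chosen with earlier results of these data known.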

Additional observations from a re-analysis of the deposited data

How the results depend on the processing

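The count of 20 upregulated members stayed between 18 and 22 when 1 culture was left out, and no member was downregulated in those fits. In those fits 6792 to 7212 of all 15280 genes tested were called in either direction. The count of upregulated members was 13 of 14 tested with a mean of at least 50, where 7251 of all 12965 genes tested were called in either direction. With no filter beyond a mean above 0, 23 of 59 tested members were upregulated and 2 downregulated, H2bc12 and H2ac15, both scarce. With that filter 7916 of all 25499 genes tested were called in either direction. The fewer or added genes account for these differences by construction. Of the 20 upregulated members, 18 kept the call in every alternative that tested them, and none turned direction. Besides the losses given above, H2ac18 and H2bc24 lost it without the variance trend, with limma adjusted p-values of 0.107 and 0.094. Leaving out 1 culture moved the log2FC of H3c8 between −0.09 (without KE replicate 2) and 0.762 (without KE replicate 3), never called. With near-identical members summed, 19 of 26 were upregulated, where 7845 of all 15278 genes tested were called in either direction. Chaperones upregulated ranged from 1 to 3 when 1 culture was left out (the lowest without NT replicate 1, which ended the call of Supt6); the cause was not tested. Same-numbered cultures correlated weakly, with r of 0.059 to 0.066 across genes against −0.050 to −0.011 for the other pairings, and were not treated as pairs, although each correlated best with its own number. With the replicate block, 21 members were upregulated, with H2bc23 added, where 8046 of all 15280 genes tested were called in either direction. H1f1 was upregulated without the variance trend. Members at a few normalized counts are limited by depth.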

Other observations

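In Gencode vM39, 4 more genes carry names of the clustered kind that the deposited table lists under other symbols, so the symbol rule did not include them. H2aw, now H2ac25, averaged 788 ± 57.5 normalized counts in KE against 567 ± 59.4 in NT (SD, n = 3 each) and was upregulated with a log2FC of 0.48 (SE 0.10, limma adjusted p = 0.0019). H2bu2, now H2bc27, had means of 61.4 and 59.4 and was not called (log2FC 0.04, SE 0.19). H4f16, now H4c16, had 10.9, 7.50 and 9.06 in KE and 3.96, 2.07 and 0 in NT, under the mean needed for the test but without overlap. H2bu1-ps, now H2bc26, was near 0. These genes were chosen by their newer names after the values of the others had been seen.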
